A study of Bombus terrestris with 8 samples.

Results

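The inner regions of unplaced contigs are places of open chromatin in the buff-tailed bumblebee, *B. terrestris*, on contigs of the Bter_1.0 assembly that have no position on any of its 18 chromosomes. They were defined from peak intervals, which were pooled over all 8 ATAC-seq samples and joined where they shared at least 1 bp. A joined region on an unplaced contig (a name starting with NW_) was kept if it began after the first base of the contig. This gave 8335 inner regions on 2144 contigs, out of 63245 joined regions in the whole genome. The other joined regions were 52844 on placed chromosomes and 2066 that begin at the very first base of their unplaced contig. Neither strength nor stage entered this choice, but a region exists only where at least 1 sample had an interval.

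Whole bodies of worker egg, larva, pupa and adult were sampled with 2 biological replicates per stage. An adult sample was 1 worker, and the samples of the other stages were pools that matched an adult in volume. All samples came from commercial colonies without treatment. A whole body mixes many tissues, so that fewer open cells and weaker opening in each cell cannot be told apart.

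In ATAC-seq, a transposase cuts DNA that is not wrapped tightly into nucleosomes, and cut ends pile up at promoters, enhancers and other accessible places. A peak caller then marks intervals where the pile exceeds the local background of the same library. An unplaced contig is either a short piece whose neighbours the assembly could not determine, or a longer piece that could not be anchored to a chromosome. The distance from its open regions to anything beyond the ends of the contig is unknown. Genes and sequences at these regions were not analysed here.

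The 8 lists held between 12331 and 37502 distinct intervals, fewest in both larval samples. Read numbers are not part of these lists, so the reads behind an interval are not known here, and the library totals that the study states were not used. Their values were not normalized between samples, so tests use presence or ranks within a list, and fold enrichments of different samples are given side by side without a test. No peak was identical between the 2 lists of a stage.

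The 8335 regions were spread very unevenly over the contigs. A single inner region was found on 1584 contigs, and these lone regions made up 19.0% of all inner regions. Another 462 contigs held 2 to 4 (1122 regions) and 52 held 5 to 9 (313 regions). The remaining 46 contigs, with 10 or more each, held 5316 regions (63.8%). Among them, the 8 contigs with most regions alone held 39.1%, led by NW_003566384.1 with 759, NW_003565557.1 with 538 and NW_003566135.1 with 521. The next were NW_003566126.1 with 369, NW_003565947.1 with 329, NW_003566036.1 with 294, and NW_003565426.1 and NW_003565435.1 with 223 each.

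Lone regions lay close to the start of their contig, with a median start at base 147.5 and a median end at base 814, and none ended beyond base 11305. On the 46 contigs with 10 or more, the median start was at base 444667. Neighbouring regions there were separated by a median of 1813.5 bp, against 1828 bp on the placed chromosomes. Widths ran from 200 to 3816 bp over all inner regions, with a median of 496 bp for the lone ones and 381 bp on the 46 contigs. Only 48 of the 1584 lone regions shared their contig with a region at the first base.

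The share of inner regions with an interval was 57.0% in egg replicate 1 and 48.5% in egg replicate 2. In the larval samples it was 36.7% and 27.8%, and in the pupal samples 52.4% and 52.7%. The adult samples had 45.7% and 53.7%. Both larval samples thus lay below the samples of every other stage, with no overlap. The same held over all joined regions of the genome, with 25.6% and 18.4% in the larval samples and 40.9% to 58.0% in the others. Intervals in both egg replicates were found for 3078 inner regions, while 2059 had both larval, 3368 both pupal and 3339 both adult replicates. These are 36.9% (95% Clopper-Pearson interval 35.9% to 38.0%), 24.7% (23.8% to 25.6%), 40.4% (39.4% to 41.5%) and 40.1% (39.0% to 41.1%), where intervals cover counting error only. Over all 63245 joined regions of the genome the same shares were 31.7%, 15.9%, 42.7% and 35.6%. The inner regions were above this background in the egg, larva and adult and below it in the pupa. With 2 samples per stage, no test between stages was run on these shares.

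**Figure D1:**
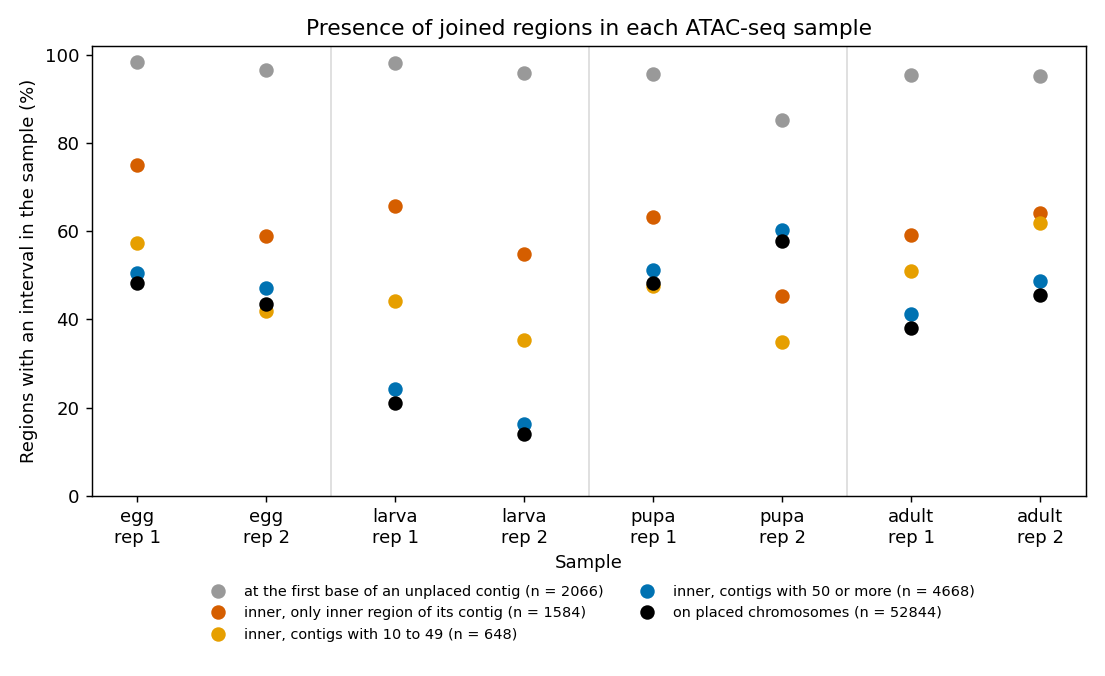
Percent of joined regions with an interval (y axis) in each of the 8 samples (x axis), 1 point per sample and class of region, without error bars. Grey points are regions at the first base and amber points inner regions of contigs with 10 to 49. Lone inner regions (orange) ran from 45.3% to 74.9% and inner regions of contigs with 50 or more (blue) stayed close to the placed chromosomes (black), while pupa replicate 2 reversed the order of orange and blue.

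An interval in all 8 samples was found for 1345 inner regions, or 16.1% (15.4% to 16.9%), where the background over all joined regions was 12.5%. At the other end, 2459 inner regions (29.5%, background 32.6%) had an interval in 1 sample alone. Of these, 627 and 348 belonged to egg replicates 1 and 2, 118 and 92 to larval, 203 and 518 to pupal, and 120 and 433 to adult replicates. Adult replicate 1 was thus close to larva replicate 1 in number, though their lists held 27135 and 17073 intervals. The same counts by sample were not made over all joined regions, so they are not read as a trait of the inner regions. Median fold enrichment was 2.64 for regions of 1 sample and 5.79 for regions of all 8, and median −log10 (P value) 6.66 and 32.5. Median width was 249 and 798 bp, where joining the intervals of more samples can only widen a region. On placed chromosomes the regions of all 8 samples had a similar median width of 814 bp and a median fold enrichment of 5.41.

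Among the inner regions of all 8 samples, the 5 with the highest lowest fold enrichment were all lone regions that began within 60 bases of the contig start. Fold enrichment at the first of them, NW_003570245.1 from 4 to 728, was 26.9 and 25.6 in the egg samples, 26.2 and 24.8 in the larval samples, 26.8 and 16.8 in the pupal samples, and 25.5 and 16.1 in the adult samples. Only pupa replicate 2 and adult replicate 2 stood below the others. The second, NW_003568053.1 from 58 to 844, ran from 14.4 to 23.9 and the third, NW_003569609.1 from 17 to 1021, only from 13.5 to 14.7. For NW_003567823.1 from 21 to 529, fold enrichment was 33.0 and 32.9 for egg replicates, 29.4 and 29.9 for larval, 23.3 and 17.9 for pupal, and 21.2 and 13.3 for adult replicates. The egg and larval samples of this region lay above all pupal and adult samples. Over all inner intervals, median fold enrichment was likewise 4.02 to 4.30 in egg and larval samples and 2.91 to 3.70 in the others. Intervals on placed chromosomes showed the same split, with 3.63 to 3.79 and 2.71 to 3.41, so it was not particular to the inner regions. Pupa replicate 2 and adult replicate 2 had the lowest medians of inner intervals, 3.20 and 2.91. NW_003568219.1 from 14 to 762 was the fifth, between 13.2 and 17.5.

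Lone regions were found in more samples than regions of the 46 contigs with many. An interval in all 8 samples was found for 31.1% (28.8% to 33.5%) of the lone regions and for 12.3% (11.4% to 13.2%) of the regions on contigs with 10 or more. By sample, the share of lone regions with an interval was 74.9% and 59.0% for egg replicates, 65.7% and 54.7% for larval, 63.2% and 45.3% for pupal, and 59.0% and 64.1% for adult replicates. On contigs with 10 or more it was 51.3% and 46.4%, 26.6% and 18.6%, 50.8% and 57.1%, and 42.4% and 50.2%, in the same order. The lone regions were thus ahead in 7 of 8 samples, most in the larva and not in pupa replicate 2. Contigs with many minus contigs with 1 gave -17.8 ± 15.9 percentage points (SD, n = 8 samples; exact two-sided sign-flip permutation test, p = 0.0156, 0.0179 after Benjamini-Hochberg adjustment over the 8 tests run). With only regions that start more than 1000 bp into their contig, which was a choice made with the values known, the difference was 3.08 percentage points (exact p = 0.305) and 257 lone regions were left. With only intervals above a −log10 (P value) of 20, it was -12.3 (exact p = 0.172).

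Presence was therefore counted by distance from the contig start, in classes also set with the values known. The 128 regions that began 1 to 10 bp behind the first base had an interval in all 8 samples in 64.1% of cases (55.1% to 72.3%). Just outside the limit, among the regions at the first base itself, the share was 82.8%. Farther in, it was 46.9% up to 50 bp (386 regions), 28.0% up to 100 bp (289 regions) and 21.5% up to 200 bp (247 regions). It came to 18.2% in the next class up to 500 bp, 14.2% up to 1000 bp and 14.3% up to 10000 bp. The 5335 regions beyond 10000 bp had 12.3% (11.4% to 13.2%). The larva changed most along this way, from 84.4% of regions with both replicates in the first class to 16.1% in the last. In the pupa the share was 69.5% in the first class, lowest at 27.4% between 500 and 1000 bp and 42.3% in the last. Median width fell from 661 bp in the first class to 389 bp between 200 and 500 bp, so position and width moved together. With regions of 300 to 600 bp alone, contigs with many minus contigs with 1 was -14.9 percentage points (exact p = 0.0625).

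**Figure D2:**
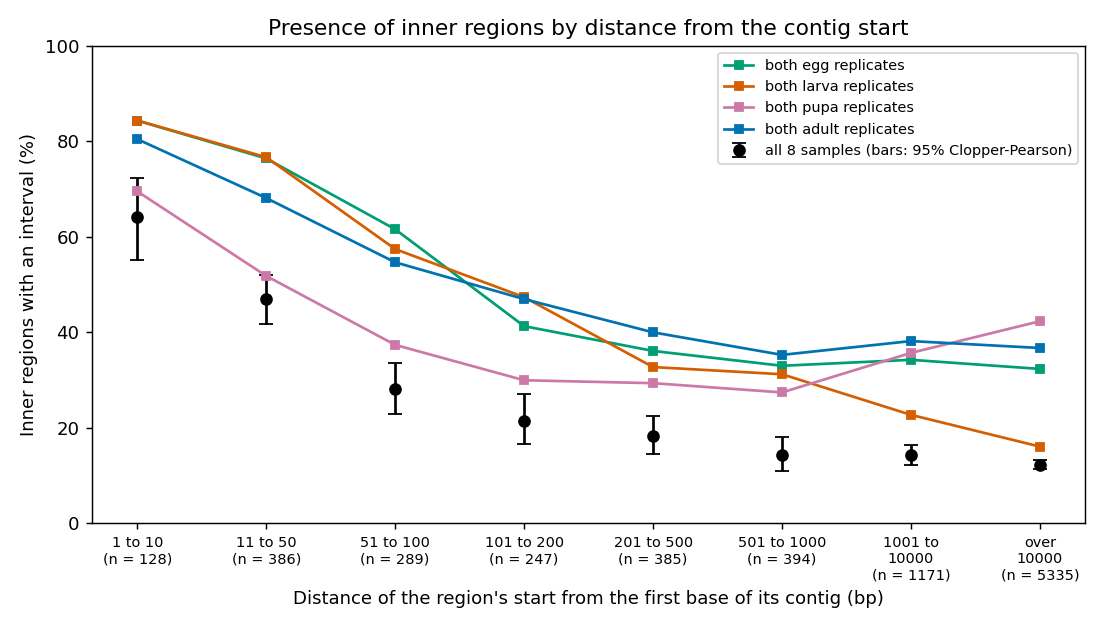
Percent of inner regions with an interval (y axis) by distance of the region's start from the first base of its contig in bp (x axis, classes of unequal size), for both replicates of each stage (coloured squares) and for all 8 samples (black, with 95% Clopper-Pearson intervals). The share in all 8 samples fell from 64.1% to 12.3%, and the larval line crossed from among the highest to the lowest of the stages.

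The stage patterns of the inner regions differed with the kind of contig. A stage counted only where both of its replicates had an interval. A stage outside a pattern, also a pattern of 1 stage alone, could still have an interval in 1 replicate. Counting stages with both replicates, 806 inner regions (9.67%, background 13.2%) were found in the pupa alone, 602 (7.22%, background 7.51%) in the adult alone, 318 (3.82%, background 4.05%) in the egg alone and 200 (2.40%, background 0.648%) in the larva alone. The pattern of egg, pupa and adult without larva took 569 regions (6.83%, background 7.59%), pupa with adult 302 (3.62%, background 4.59%), egg with pupa 265 (3.18%, background 3.76%) and egg with adult 186 (2.23%, background 1.82%). Patterns that held the larva without the pupa were above their background, with 224 regions for egg, larva and adult (2.69%, background 0.927%), 126 for egg with larva (1.51%, background 0.473%) and 83 for larva with adult (0.996%, background 0.332%). The patterns with larva and pupa other than that of all 4 stages were closer to it, with 45 for egg, larva and pupa (0.540%, background 0.534%), 28 for larva, pupa and adult (0.336%, background 0.302%) and 8 for larva with pupa (0.0960%, background 0.158%). No stage had both replicates in 3228 regions (38.7%, background 41.5%). Among the lone regions, the larva alone took 5.49% (4.42% to 6.73%), egg with larva 4.67% (3.69% to 5.83%) and egg, larva and adult without pupa 8.27% (6.96% to 9.74%). On contigs with 10 or more, the same patterns took 0.828%, 0.357% and 0.734%, and on placed chromosomes 0.325%, 0.240% and 0.367%. In the other direction, the pupa alone took 2.84% of the lone regions and 12.6% of the regions on contigs with 10 or more.

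**Figure D3:**
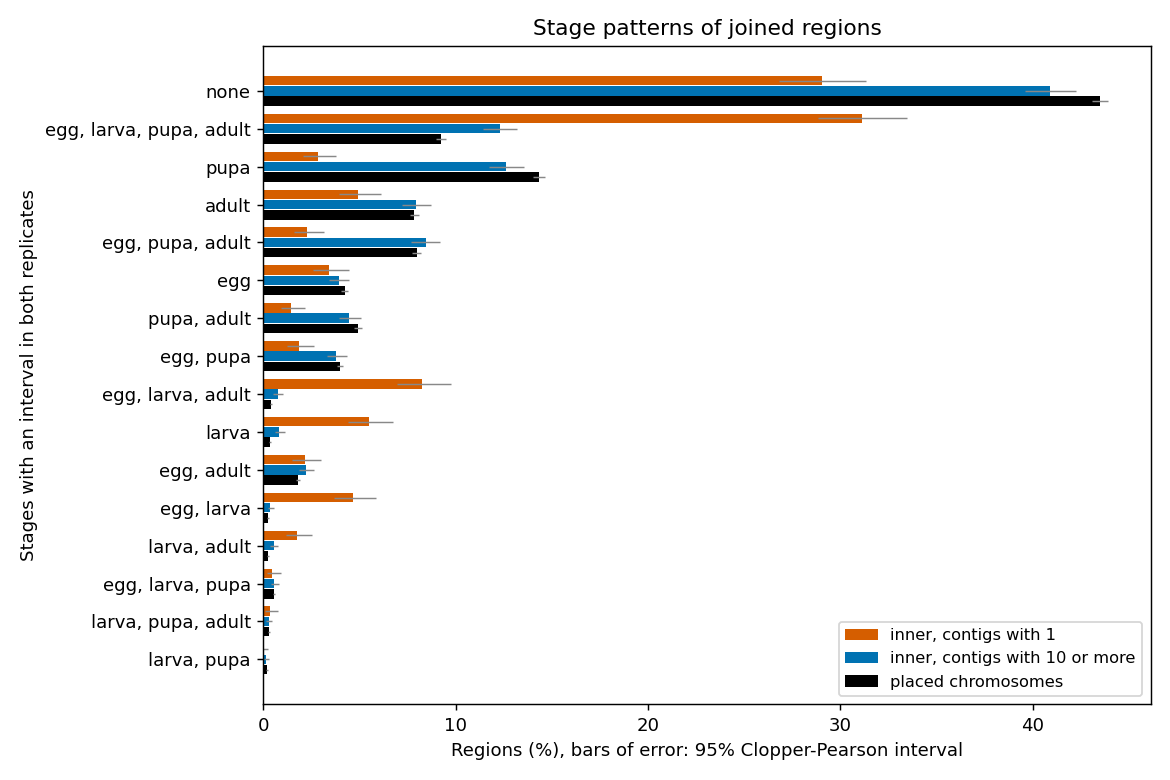
Percent of regions (x axis) for each combination of stages with an interval in both replicates (y axis), for lone inner regions, inner regions of contigs with 10 or more and placed chromosomes, with 95% Clopper-Pearson intervals for counting error. Patterns that hold the larva without the pupa were more common among lone regions, and the pupa alone was less common.

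A large part of the pattern without the pupa came from 1 sample. Of the 131 lone regions with both replicates of egg, larva and adult but not of the pupa, 115 had an interval in pupa replicate 1 and lacked it in replicate 2, while 1 showed the opposite and 15 lacked both. On placed chromosomes the 194 regions of this pattern divided into 49, 61 and 84. Likewise, of 155 lone regions with an interval in exactly 7 samples, 115 (74.2%) were missing in pupa replicate 2 and 26 in larva replicate 2. On contigs with 10 or more, the missing sample was larva replicate 2 in 214 of 294 such regions (72.8%) and pupa replicate 2 in 25. Pupa replicate 2 had the longest of all lists and larva replicate 2 the shortest, and the part of list length in this pattern was not tested. Without pupa replicate 2, contigs with many minus contigs with 1 was -22.0 percentage points. These tallies were made with the values known.

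Fold enrichment and −log10 (P value) were compared as percentile ranks among all intervals of a list, where 100 is the highest. The median fold rank of intervals in inner regions was 54.6 and 51.5 for egg replicates, 53.0 and 51.8 for larval, 52.9 and 51.8 for pupal, and 51.5 and 52.8 for adult replicates. Intervals on placed chromosomes had 45.9 and 46.8, 41.9 and 38.9, 46.4 and 48.1, and 46.5 and 46.3. The inner regions ranked higher in 8 of 8 samples, by 7.40 ± 3.26 rank points (SD, n = 8; exact sign-flip permutation test, p = 0.00781, the smallest it allows, adjusted 0.0179). By −log10 (P value) they also ranked higher in 8 of 8 samples, by 5.53 ± 3.68 (SD, n = 8; exact permutation p = 0.00781, adjusted 0.0179). For inner regions more than 1000 bp into their contig, the differences were 3.21 (exact p = 0.00781) and 2.07 (exact p = 0.0156).

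The median fold rank of the lone regions was 69.7 and 61.0 for egg replicates, 71.0 and 68.1 for larval, 65.0 and 57.5 for pupal, and 62.3 and 66.2 for adult replicates, against 40.9 to 51.2 on contigs with 10 or more. Contigs with many minus contigs with 1 gave -17.9 ± 7.26 rank points (SD, n = 8), negative in 8 of 8 samples (exact permutation p = 0.00781, adjusted 0.0179). For −log10 (P value) the difference was -12.5 ± 9.19, negative in 7 of 8 samples (n = 8, exact permutation p = 0.0156, adjusted 0.0179). The exception was again pupa replicate 2, at 51.4 for contigs with many and 49.4 for lone regions. The share of intervals with −log10 (P value) above 20 was 38.6% to 48.2% for lone regions and 12.7% to 41.1% on contigs with 10 or more, a difference of -12.9 ± 9.13 percentage points in the same 7 samples (n = 8, exact permutation p = 0.0156, adjusted 0.0179). More than 1000 bp into the contig, these 3 differences were -4.77 (exact p = 0.0625), 0.687 (exact p = 0.805) and 0.376 (exact p = 0.836).

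**Figure D4:**
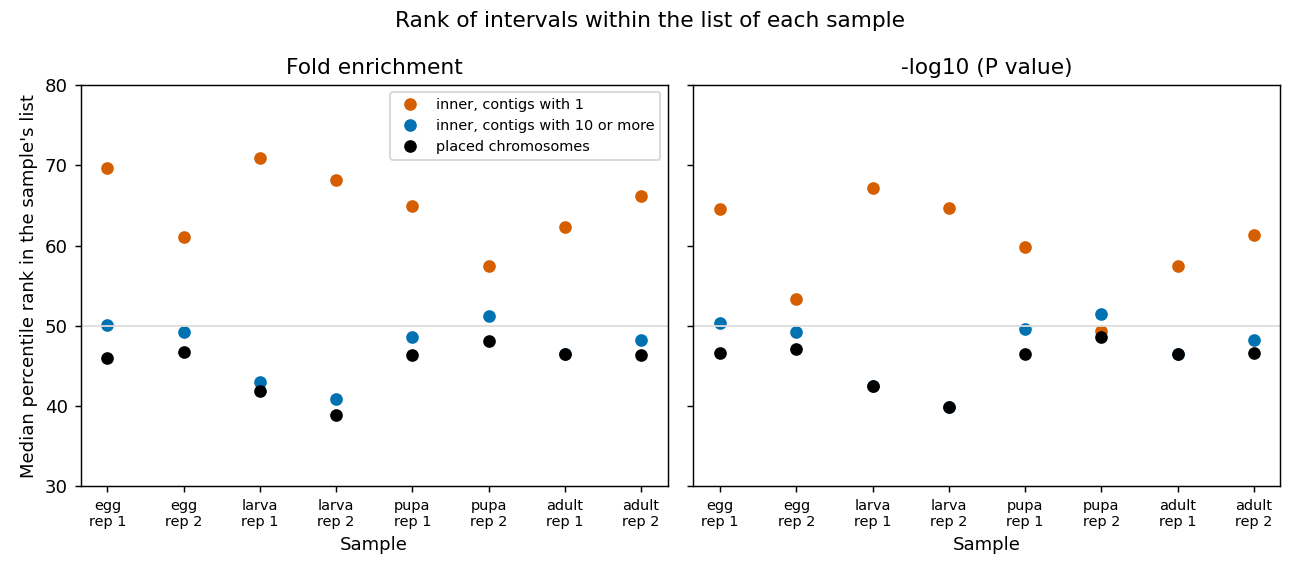
Median percentile rank (y axis, from 30 to 80) of fold enrichment (left) and −log10 (P value) (right) within each sample's own list, for intervals in lone inner regions, in inner regions of contigs with 10 or more and on placed chromosomes; each point is 1 sample. Lone regions stood at 57.5 to 71.0 by fold, above both other classes in all samples, and by −log10 (P value) met them in pupa replicate 2.

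In the lone regions, the fold rank of an interval was nearly always above its own −log10 (P value) rank, a comparison added once the values were known. This held for 91.8% to 99.2% of their intervals, depending on the sample. The median over samples was 97.1%, and it fell with the number of regions on the contig, to 91.5% with 2 to 4, 73.4% with 5 to 9, 72.9% with 10 to 49 and 63.7% with 50 or more, and was 64.8% on placed chromosomes. Single samples did not all fall at each step. From contigs with 10 to 49 to those with 50 or more, the larval samples rose, from 56.4% and 52.1% to 66.2% and 69.4%, while all other samples fell. From contigs with 5 to 9 to those with 10 to 49, egg, pupa and adult replicate 2 rose and the other samples fell. Unlike presence, the share in lone regions did not change with position, since those more than 1000 bp into their contig had 95% to 98.5%.

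The larval share was then followed over the 46 contigs with 10 or more inner regions. Intervals in both larval replicates were found for 8.21% to 66.7% of the regions of a contig, with a median of 18.1%. For the other stages the median was 32.8% in the egg, 38.5% in the pupa and 40.0% in the adult. In comparison, the larval share of the 18 placed chromosomes had a median of 11.3% and reached 13.7%. The contigs were divided by their number of regions, into 2 classes set with these shares in view. The larval shares of the 2 classes overlapped in part, and a share over fewer regions carries more counting error. On the 18 contigs with 50 or more regions, the larval share ran from 8.21% to 19.0% and was below that of every other stage on 18 of 18. On the 28 contigs with 10 to 49 regions it ran from 8.33% to 66.7%, and was below the pupal share on 8, above it on 13 and equal on 7. Summed over their 648 regions, the larva had 29.9% (26.4% to 33.6%), the pupa 29.6% (26.1% to 33.3%), the egg 34.1% (30.5% to 37.9%) and the adult 44.4% (40.6% to 48.4%). Over the 4668 regions of the larger contigs these shares were 13.8% (12.8% to 14.8%), 44.3% (42.9% to 45.8%), 32.0% (30.7% to 33.4%) and 35.8% (34.5% to 37.2%). By sample, the smaller contigs had an interval in 44.1% and 35.3% of regions for larval replicates and 47.5% and 34.9% for pupal replicates. Pupa replicate 1 was thus above both larval samples there and pupa replicate 2 below both. The adult replicates had 50.9% and 61.9%, above both pupal samples. On the larger contigs, larval replicates had 24.2% and 16.2% and pupal replicates 51.3% and 60.2%. The adult share exceeded the pupal share on 23 of the 28 smaller contigs and on 1 of the 18 larger ones. Regions of 1 contig share its sequence, and contigs are not replicates of a stage, so no test was made.

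**Figure D5:**
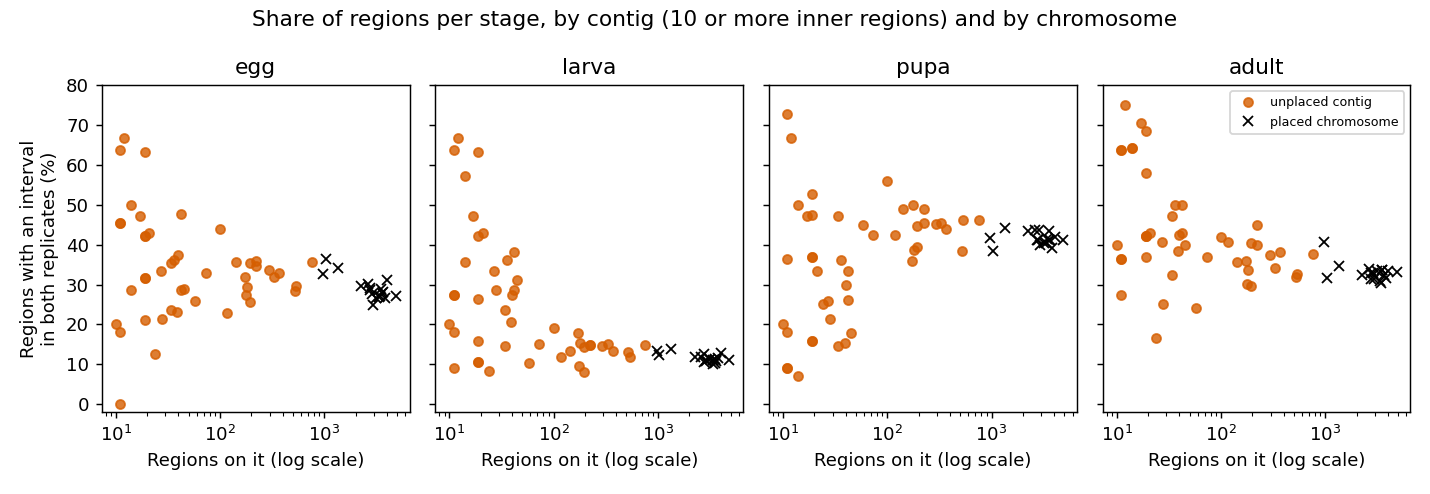
Percent of regions with an interval in both replicates (y axis) against the number of regions (x axis, log scale), 1 panel per stage, for the 46 unplaced contigs with 10 or more inner regions (circles) and the 18 placed chromosomes (crosses). Contigs with under 50 regions scatter widely, up to 66.7% in the larva, while larger contigs lie at 8.21% to 19.0%, near the chromosomes.

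The highest larval shares belonged to 4 small contigs. NW_003566024.1 had both larval replicates in 8 of its 12 regions, both egg replicates in 8, both pupal replicates in 8 and both adult replicates in 9, and 7 regions were found in all 8 samples. NW_003566089.1 had the larva in 7 of 11 regions and all 8 samples in 6, and NW_003566523.1 had the larva in 12 of 19 and all 8 samples in 9. On NW_003566487.1 the larva was found in 8 of 14 regions and all 8 samples in 5. A region found in all 8 samples adds to the larval share by definition, so these 2 counts are not independent. The lowest shares were those of NW_003566517.1, with 16 of 195 regions, NW_003565929.1 with 2 of 24, NW_003565639.1 with 1 of 11 and NW_003566535.1 with 17 of 176. Among these 4 lowest, NW_003565639.1 differed in its adult regions, 7 of 11, against 2 for the egg and 1 for the pupa. The regions of NW_003565639.1 had an interval in 63.6% and 90.9% of cases for adult replicates, 45.5% and 18.2% for egg, 36.4% and 9.09% for larval, and 45.5% and 9.09% for pupal replicates. Both adult samples were above all others on this contig. This also held on NW_003565462.1, with the adult in 9 of 14 regions, and on NW_003566132.1, with the adult in 16 of 34.

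The contig with most regions, NW_003566384.1, had egg and adult shares within the range of the placed chromosomes. Its larval share of 14.9% and pupal share of 46.2% lay above the highest chromosome (13.7% and 44.1%). Of its 759 regions, both egg replicates had 270, both larval 113, both pupal 351 and both adult replicates 285, and 93 were found in all 8 samples. By sample, 54.4% and 50.99% had an interval for egg replicates, 25.7% and 16.9% for larval, 51.4% and 64.7% for pupal, and 41.9% and 52.8% for adult replicates. The larval share on the 8 contigs with most regions lay between 11.9% and 15.2%. Neighbouring regions on the 46 contigs were also compared. After a region with both larval replicates, the next region on the contig had them in 24.8% of 812 cases, and after another region in 13.9% of 4458 cases. How far this reflects contigs of different larval share was not tested.

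Regions with both replicates of 1 stage and no interval in any other sample were few. There were 387 (4.64%, background 6.62%) for the pupa, 241 (2.89%, background 3.14%) for the adult, 117 (1.40%, background 1.76%) for the egg and 32 (0.384%, background 0.104%) for the larva. The strongest of them by the weaker replicate lay on contigs of all sizes. By fold enrichment, those of the pupa were NW_003566535.1 from 404130 to 404680 (8.79 and 6.31) and NW_003566036.1 from 945910 to 946548 (5.87 and 6.73). The second egg region, NW_003566384.1 from 2567176 to 2567621, had 6.58 and 5.40, after the lone region on NW_003570554.1. The second adult region lay on the same large contig from 243850 to 244595, with 6.08 and 5.47. For the larva, the first was NW_003565814.1 from 11573 to 11897, with 4.32 and 4.86 and −log10 (P value) of 12.3 and 11.8. The next, NW_003566047.1 from 1245 to 1572, had 3.91 and 4.30.

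Regions shared by 2 or 3 stages, with every replicate present and the other samples empty, were counted for 5 combinations. Egg, pupa and adult shared 263 such regions (3.16%, background 3.38%), egg and pupa 107 (1.28%, background 1.51%), pupa and adult 92 (1.10%, background 1.63%), egg and adult 35 (0.420%, background 0.545%), and egg and larva 14 (0.168%, background 0.0996%). Without the larva, fold enrichment at NW_003565794.1 from 3996 to 5272 was 6.06 and 5.62 in the egg, 7.72 and 8.61 in the pupa, and 6.77 and 5.24 in the adult. NW_003565435.1 from 234359 to 234939 had 5.096 and 7.01, 7.34 and 7.85, and 9.13 and 5.36, so that the stages overlapped. In the late stages, NW_003565856.1 from 384 to 977 had 8.57 and 8.04 in the pupa and 7.97 and 5.83 in the adult. NW_003565743.1 from 53701 to 54125 had 4.57 and 4.11, and 6.97 and 4.95. For egg and pupa, NW_003566597.1 from 5635 to 6398 had 8.25 and 5.06, and 8.67 and 5.42, and NW_003565407.1 from 341984 to 342350 had 7.48 and 4.94, and 9.60 and 8.41.

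For egg and adult, NW_003566036.1 from 1010065 to 1010476 had 3.87 and 4.71 in the egg and 3.99 and 4.27 in the adult, and NW_003565557.1 from 1529821 to 1530123 had 4.26 and 7.70, and 5.08 and 3.64. Egg and larva shared NW_003565576.1 from 4451 to 4876, with 4.51 and 5.75 in the egg and 3.64 and 3.74 in the larva. They also shared NW_003565611.1 from 1611 to 1984, with 3.61 and 4.60, and 6.20 and 3.18. The widest inner regions were NW_003565564.1 from 211 to 4026, which only larva replicate 2 lacked, NW_003566089.1 from 39215 to 42620 and NW_003565729.1 from 133 to 3273. The latter 2 were found in all 8 samples, with a fold enrichment between 5.35 and 7.25 and between 4.99 and 7.56.

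Replicates of a stage were more alike in the inner regions than samples of different stages. The Jaccard index, the base pairs covered in both samples over those covered in either, was 0.519 for the egg pair, 0.612 for the larva, 0.584 for the pupa and 0.628 for the adult. The mean was 0.585 ± 0.0481 (SD, n = 4 pairs), against 0.454 ± 0.0649 (SD, n = 24 pairs) between stages. The difference of 0.131 was larger than for any other way to pair the samples (exact one-sided permutation test over all pairings, p = 0.00952, the smallest possible, adjusted 0.0179). The egg pair was the least alike, and its index was exceeded by 4 of the 24 pairs across stages. Larva replicate 2 and pupa replicate 2 were the least alike of all, at 0.280. They covered 1.22 and 2.17 Mb of inner regions, and unequal coverage limits the index a pair can reach. With the same number of inner intervals in every sample, same-stage pairs exceeded the others by 0.131 (exact one-sided permutation p = 0.00952).

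Inner regions held 14.9% and 14.2% of the intervals of the egg replicates, 18.9% and 19.8% for larval, 13.9% and 12.2% for pupal, and 15.0% and 14.9% for adult replicates. The replicates differed by 0.885 percentage points on average, and the sum of their squared differences was smaller than in nearly all other pairings of the samples (exact one-sided permutation test, p = 0.0190, adjusted 0.0190). By intervals with −log10 (P value) above 20 alone, the mean difference was 1.44 (exact p = 0.0762), and without egg replicate 2 or adult replicate 1 it was 0.928 and 1.13 (exact p = 0.0571 each). The larval samples had the highest share. No p-value is given for the larva alone, since earlier results on these data had singled it out. Lone regions made up 33.5% and 37.0% of the inner intervals of the larval samples and 16.9% to 25.3% in the others.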

How the data were processed

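ATAC-seq peak lists of 8 *B. terrestris* whole-body samples were used. Per the paper's methods, the authors filtered reads with SOAPnuke, aligned them to Bter_1.0 with Bowtie2 2.2.5, keeping many alignments per read, and called peaks per sample with MACS2 2.2.5 on shifted and extended read ends, with no control library named. The deposited columns used were the coordinates, the fold enrichment (a ratio to the local background) and the p-value as −log10, both from the authors' peak caller. The q-value column, also as −log10, was only checked (lowest 1.30). The deposited score, derived from the q-value, was not used. Reads with several alignments and windows that end with a short contig can change fold and p-value there, and this was not tested.

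A distinct interval took its best summit. Intervals were joined at 1 bp of overlap, and a region was present in a sample with an interval. Shares have exact Clopper-Pearson intervals at the 95% level, which cover counting error only. Contigs with 10 or more inner regions counted as contigs with many. The 8 exact permutation tests over samples (all pairings or all sign changes) were adjusted by Benjamini-Hochberg at 0.05. The 8 samples are 4 stages of 2 and not fully independent units. Regions and contigs named follow a fixed rule: the highest lowest fold for all 8 samples, for 1 stage and for 5 combinations, the widest, the contigs with most regions, and those with the highest and lowest larval share. Members, rules and tests were chosen with earlier results of these data known. The code was tested on simulated data. No genome or annotation of Bter_1.0 was used here, so sequences and genes were not analysed. Python 3.11.15, numpy 2.4.6, scipy 1.17.1, pandas 2.3.3 and matplotlib 3.10.9 were used, with bedtools 2.31.1 for the check of joining.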

Additional observations from a re-analysis of the deposited data

How the results depend on the processing

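Of the 8 tests, all that have a direction kept it in the alternatives chosen at the outset. The replicate difference of the inner share is an absolute value, so its direction could not change. Smaller designs cannot pass: with stage means as units (smallest p 0.125), the differences were 7.40 and 5.53 (fold and p rank of inner regions against placed), and -17.8, -12.9, -17.9 and -12.5 (presence, strong share, fold rank and p rank of contigs with many against 1). Without the egg, larva, pupa or adult samples, the Jaccard difference was 0.179, 0.0908, 0.119 and 0.136 (exact p = 0.0667 each, the smallest possible). Presence on contigs with many against 1 lost its call with −log10 (P value) above 20 (-12.3) and, added later, with regions of 300 to 600 bp (-14.9). With regions more than 1000 bp into the contig, also added later, presence reversed to 3.08, strong share to 0.376 and p rank to 0.687, and fold rank was weaker at -4.77; the cause was not tested. The replicate difference of the inner share was 1.44 percentage points with −log10 (P value) above 20, and lost its call.

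Leaving out each replicate in turn gave 6.61 to 7.94 for fold rank against placed, 4.69 to 6.13 for p rank against placed, -22.0 to -14.8 for presence, -14.8 to -11.1 for strong share, -19.5 to -16.4 for fold rank and -14.6 to -10.7 for p rank of contigs with many against 1, all still called. The Jaccard difference ran from 0.1003 to 0.165 and kept its call. The replicate difference of the inner share ran from 0.594 to 1.13 percentage points and could lose its call (highest exact p = 0.0571). One replicate alone gave 48.5% to 57.0% for the egg, 27.8% to 36.7% for the larva, 52.4% to 52.7% for the pupa and 45.7% to 53.7% for the adult. Regions in all remaining 7 samples made up 16.2% to 19.5%.

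With −log10 (P value) above 20 there were 3092 inner regions, 11.4% of them in all 8 samples, 18.2% in the larva and 41.0% in the pupa, and the median larval share by contig was 4.58%. With at least 50% of a region covered, shares were 28.9% (egg), 34.6% (pupa), 33.0% (adult) and 9.74% (all 8 samples). Joining across 200 bp gave 42.4% in the pupa and 17.4% in all 8 samples. Beyond 1000 bp, the larva had 17.3%, the pupa 41.1% and all 8 samples 12.6%. With either replicate, shares were 68.5% (egg), 39.8% (larva), 64.7% (pupa) and 59.4% (adult), and the median larval share by contig was 37.0%. That median was 28.0% on contigs with 10 to 49 regions.

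Replicate numbers were not taken to pair the samples, since the labels give no shared batch and not every pair of stages correlated over 0.1. Deviations of same-numbered samples from their stage means correlated between 0.0465 and 0.586, over 0.1 in 3 of 6 pairs of stages, which does not exclude a shared batch. With a replicate block, the Jaccard difference was 0.139 and the replicate difference of the inner share 0.885, each at an exact p = 0.0417, the smallest that 24 arrangements allow.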
